A study of Mus musculus with 11 samples.

Results

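DNA repair and damage signalling genes were followed in sorted marrow stromal cells of mice after doxorubicin. The set holds 35 genes given by symbol (Atm, Atr, Prkdc, Chek1, Chek2, Rad50, Nbn, Trp53bp1, Rnf8, Rnf168, Brca1, Brca2, Palb2, Rad51b, Rad51c, Rad51d, Xrcc2, Xrcc3, Rad52, Rad54l, Xrcc4, Xrcc5, Xrcc6, Lig4, Polq, Xrcc1, Lig1, Lig3, Parp1, Parp2, Fanca, Fancd2, Msh6, Ercc1 and Ercc2), and its rows were taken by exact match from a table of 24718 genes. All 35 were present, and all 35 were among the 17838 genes left by a filter on low counts. The cells are mesenchymal stem and progenitor cells (MSPCs) of female Lepr-Cre;LSL-tdTomato mice, sorted on the red reporter, which is switched on by Cre under the leptin receptor gene and so marks every cell with a history of that gene. DOX4X mice (4 libraries) had 4 intravenous injections of doxorubicin at 5 mg/kg, 1 week apart, DOX1X mice (3 libraries) had 1 injection at 10 mg/kg, and PBS mice (4 libraries) had 4 injections of phosphate-buffered saline. Cells of all 3 groups were taken 8 weeks after treatment. The schedules differ in dose, in number of injections and in timing, and DOX1X had no vehicle group of its own schedule. The labels call DOX4X mice young adults of 8 to 10 weeks and DOX1X mice young adults, and give no age for PBS.

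Doxorubicin is an anthracycline that traps topoisomerase II on DNA and leaves double-strand breaks. Breaks are sensed by the MRN complex and the Ku heterodimer, signalled by the kinases ATM, ATR and DNA-PK, and repaired by homologous recombination, which needs a sister chromatid, or by end joining, which does not. Many of these enzymes act after modification of existing protein, so that a transcript level is not a measure of repair activity, and several of the recombination and crosslink repair genes are transcribed mainly in cells that replicate their DNA. In adult marrow most leptin receptor stromal cells are known to divide rarely.

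Levels are given as CPM, the reads of a gene relative to the total of its library, after TMM scaling, in the order of replicate numbers within a group. Libraries held 31129352 to 36888310 counts in DOX4X, 33496356 to 42002065 counts in DOX1X and 29540422 to 42784036 counts in PBS. Among markers of these stromal cells, Cxcl12, the niche chemokine, was at 46059 to 57087 CPM in DOX4X, 48120 to 59804 CPM in DOX1X and 51113 to 58209 CPM in PBS, with Lepr at 3939 CPM or more in every library. PBS replicate 4 carries a title that begins with the doxorubicin abbreviation, against a PBS treatment label and a library name that continues the controls, so results with PBS are given with and without it where it matters. The column names place every DOX4X library and DOX1X 3 on flow cell 2, and the remaining DOX1X libraries and all of PBS on flow cell 1, so DOX4X and PBS cannot be told apart from the flow cells except through DOX1X. Nothing in the labels says whether libraries of a group were prepared on separate days, and p-values measure the spread between these mice.

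Transcripts of the repair genes were mostly a little higher in DOX4X than in PBS, but none passed the test across all genes. Of the 35 genes, 28 had a fold change above 0 in DOX4X against PBS, where 52.2% of all 17838 genes did, and 7 were below 0. The median log2 fold change of the 35 was 0.15, beside 0.014 over all genes, and the range was -0.17 to 0.73. edgeR's quasi-likelihood test called 0 of 35 at an adjusted p under 0.05, where it called 0.146% of all genes. DESeq2 called 2 (Chek2, adjusted p = 0.0195, and Xrcc3, adjusted p = 0.0475), where it called 4.02% of the genes it gave an adjusted p, and limma-voom called 0 (0.314% of all genes). At an unadjusted p under 0.05, edgeR gave 5 of the 35 higher (Chek1, Chek2, Polq, Xrcc3 and Xrcc6) and 0 lower, against 6% of all genes higher and 7.85% lower. In 4 genes (Chek2, Xrcc3, Xrcc6 and Parp2) every DOX4X library lay above every PBS library, and in 0 below, where 3.17% of all genes were fully higher and 4.68% fully lower. Without PBS 4 the counts were 27 above 0 and 8 below, the median was 0.15 (0.025 over all genes), edgeR called 0, and 6 were higher at an unadjusted p under 0.05, against 6.41% of all genes in that fit.

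**Figure D1:**
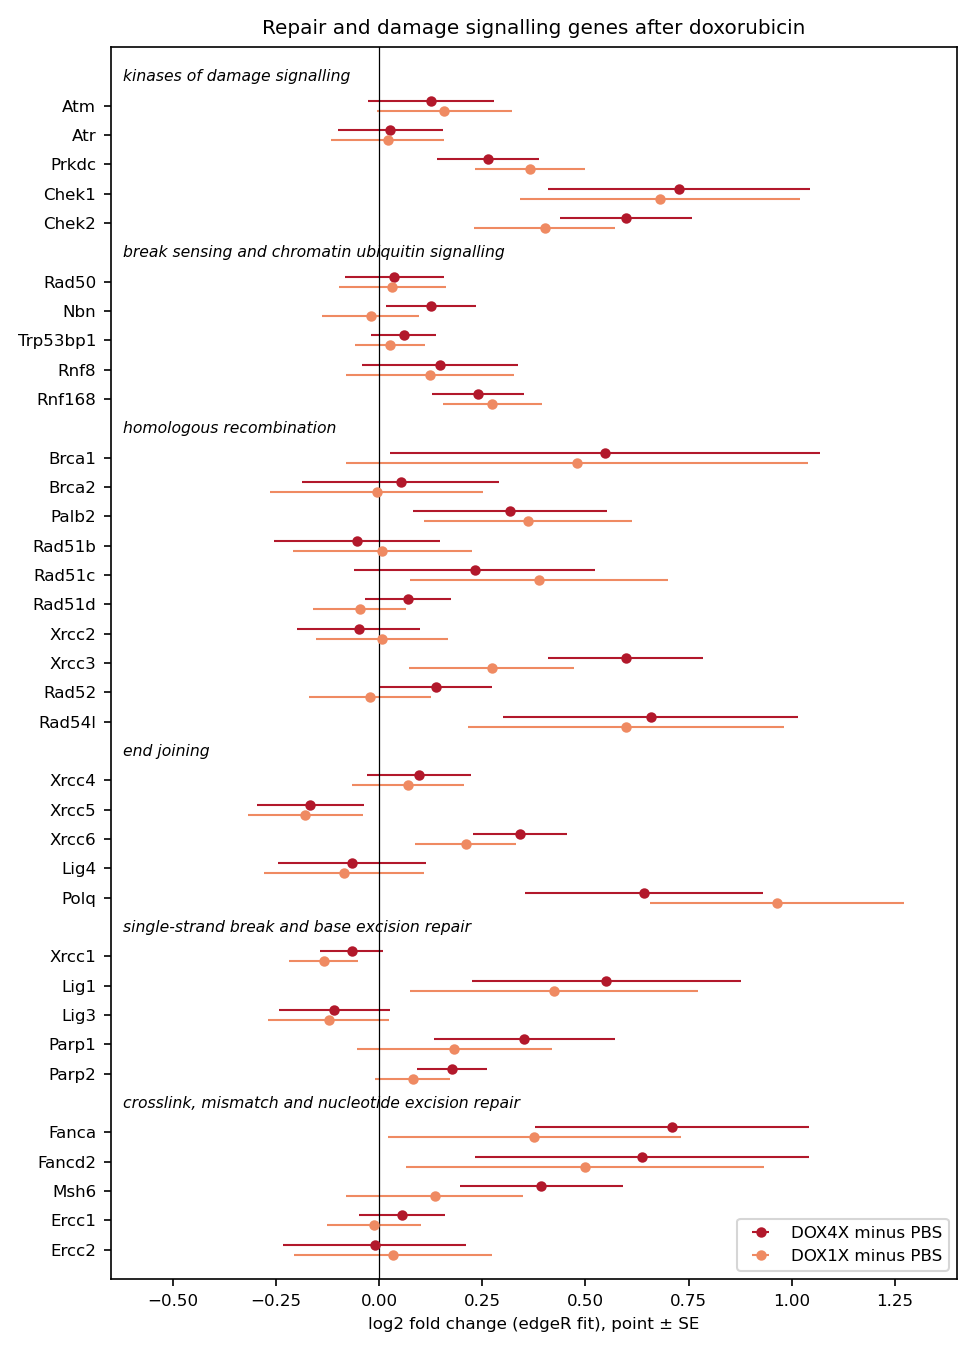
Log2 fold changes (horizontal axis, point ± SE from the edgeR fit) of the 35 genes in DOX4X minus PBS (dark red) and DOX1X minus PBS (orange), in blocks by role. Most points lie right of 0; the DOX4X values run from -0.17 for Xrcc5 to 0.73 for Chek1, and both contrasts share the 4 PBS libraries.

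Among the 5 kinases of damage signalling, all 5 had a positive fold change in DOX4X against PBS, with a median log2 value of 0.26. Chek2, the effector kinase activated by ATM, had 12.2, 13.5, 9.6 and 11.1 CPM in DOX4X, 10.9, 11.4 and 7.99 CPM in DOX1X and 8.37, 8.48, 7.38 and 6.37 CPM in PBS. Every DOX4X library was above every PBS library, and of the DOX1X libraries only replicate 3 lay within the PBS range. The log2 fold change was 0.60 ± 0.16 (SE, adjusted p = 0.155 by edgeR) for DOX4X against PBS, with an unadjusted p of 0.0029, and DESeq2 gave an adjusted p of 0.0195. The adjusted p ran from 0.104 to 0.443 over the alternative fits by edgeR and limma-voom.

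Chek1, the effector kinase of the ATR branch, which restrains the cell cycle when replication stalls, had 10.7, 6.35, 4.93 and 5.8 CPM in DOX4X, 6.41, 8.76 and 5.02 CPM in DOX1X and 3.86, 6.71, 3.43 and 2.8 CPM in PBS. DOX4X 1 was the highest of the 11 libraries and PBS 4 the lowest, and the groups overlapped through PBS 2. The log2 fold change was 0.73 ± 0.32 (SE, adjusted p = 0.341 by edgeR) for DOX4X against PBS.

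The 3 large kinases at the head of the pathway had smaller fold changes. Atm had 19, 16.4, 14 and 14 CPM in DOX4X, 14.1, 16.1 and 18.5 CPM in DOX1X and 16, 11.8, 17.3 and 13.1 CPM in PBS. Atr, which is recruited to single-stranded DNA, had 27.5, 25.1, 29.5 and 20.4 CPM in DOX4X, 22.2, 26.5 and 27.8 CPM in DOX1X and 26.6, 21.6, 24.8 and 27.6 CPM in PBS. The groups overlapped for both, with log2 fold changes for DOX4X against PBS of 0.13 ± 0.15 (SE, adjusted p = 0.781 by edgeR) for Atm and 0.028 ± 0.13 (SE, adjusted p = 0.953 by edgeR) for Atr. Prkdc, the catalytic subunit of DNA-PK, had 36.3, 29.8, 38.6 and 26.7 CPM in DOX4X, 33.8, 33.3 and 38.8 CPM in DOX1X and 24, 28.7, 26.6 and 30.4 CPM in PBS. All 3 DOX1X libraries and DOX4X 1 and 3 were above the whole PBS range, while DOX4X 2 and 4 lay inside it. Its log2 fold change was 0.26 ± 0.12 (SE, adjusted p = 0.377 by edgeR) for DOX4X against PBS.

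The 5 genes of break sensing and chromatin ubiquitin signalling had a median log2 fold change of 0.13 in DOX4X against PBS, with 5 above 0 and 0 at an unadjusted p under 0.05. Rnf168, the ubiquitin ligase that marks histone H2A around a break, had 37.3, 34.2, 27.6 and 32.1 CPM in DOX4X, 30.9, 37.8 and 32.2 CPM in DOX1X and 24.7, 26.6, 28.9 and 31 CPM in PBS. The DOX4X libraries other than replicate 3 and the DOX1X libraries other than replicate 1 were above all 4 PBS libraries, and the log2 fold change was 0.24 ± 0.11 (SE, adjusted p = 0.373 by edgeR) for DOX4X. Nbn, the MRN subunit that recruits ATM, had 36.9, 36.7, 34.3 and 27.5 CPM in DOX4X, 31, 32.2 and 28.4 CPM in DOX1X and 34, 33.2, 29.1 and 27.6 CPM in PBS. All 3 groups overlapped, and the log2 fold change was 0.13 ± 0.11 (SE, adjusted p = 0.661 by edgeR) for DOX4X against PBS.

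Trp53bp1, the adaptor that protects broken ends and favours end joining, was among the steadiest of the 35 genes. It had 36.8, 32.9, 37.7 and 36.4 CPM in DOX4X, 33.1, 33.6 and 38.8 CPM in DOX1X and 33.8, 34.8, 36.6 and 32.8 CPM in PBS, within 1.19-fold from lowest to highest library. Its log2 fold change was 0.059 ± 0.079 (SE, adjusted p = 0.801 by edgeR) for DOX4X against PBS. Rad50, the MRN subunit that bridges ends, averaged 38.3 ± 6.06 CPM in DOX4X and 37.3 ± 3.02 CPM in PBS (SD, n = 4 each), and Rnf8, the ligase that acts before Rnf168, averaged 8.16 ± 0.681 CPM in DOX4X and 7.37 ± 2.09 CPM in PBS (SD, n = 4 each).

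Of the 10 homologous recombination genes, 8 had a fold change above 0 in DOX4X against PBS, with a median of 0.19 on the log2 scale. Xrcc3, which acts in strand exchange, had 5.42, 6.12, 4.99 and 5.26 CPM in DOX4X, 3.6, 5.55 and 3.92 CPM in DOX1X and 2.89, 3.84, 3.98 and 3.7 CPM in PBS. The 4 DOX4X libraries were all above the 4 PBS libraries, and only DOX1X 2 reached the DOX4X range. The log2 fold change was 0.60 ± 0.19 (SE, adjusted p = 0.206 by edgeR) for DOX4X against PBS, and DESeq2 gave an adjusted p of 0.0475. For Rad51b, Rad51c, Rad51d and Xrcc2, which also act in homologous recombination, the log2 fold changes for DOX4X against PBS were -0.053 (SE 0.20) for Rad51b, 0.23 (SE 0.29) for Rad51c, 0.071 (SE 0.10) for Rad51d and -0.050 (SE 0.15) for Xrcc2, and their groups overlapped.

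Brca1, which promotes end resection, had 11.6, 9.95, 2.08 and 6.18 CPM in DOX4X, 6.24, 11.6 and 3.5 CPM in DOX1X and 6.7, 7.38, 3.92 and 2.37 CPM in PBS. Its libraries spread widely within DOX4X, with DOX4X 3 the lowest of all 11 and DOX1X 2 and DOX4X 1 the highest, and the log2 fold change of 0.55 ± 0.52 (SE, adjusted p = 0.706 by edgeR) for DOX4X against PBS was about as large as its error. Brca2, a mediator of strand invasion, had 12, 7.58, 8.93 and 8.36 CPM in DOX4X, 10.7, 10.1 and 5.73 CPM in DOX1X and 9.72, 11.6, 7.61 and 6.57 CPM in PBS, with overlapping groups and a log2 fold change of 0.052 ± 0.24 (SE, adjusted p = 0.952 by edgeR) for DOX4X. Palb2, which links both proteins, averaged 4.21 ± 0.656 CPM in DOX4X and 3.38 ± 0.605 CPM in PBS (SD, n = 4 each).

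Rad52, an annealing protein of less weight in mammals than in yeast, had 8.56, 8.92, 11.7 and 10.9 CPM in DOX4X, 8.37, 8.58 and 10.0 CPM in DOX1X and 8.27, 8.88, 10.0 and 9.31 CPM in PBS. DOX4X 3 and 4 were the highest libraries, the groups overlapped, and the log2 fold change was 0.14 ± 0.14 (SE, adjusted p = 0.719 by edgeR) for DOX4X against PBS. Rad54l, a DNA motor protein of strand exchange, averaged 12.3 ± 4.07 CPM in DOX4X and 7.81 ± 3.48 CPM in PBS (SD, n = 4 each), a log2 fold change of 0.66 ± 0.36 (SE, adjusted p = 0.444 by edgeR).

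Of the 5 end joining genes, 3 had a fold change above 0 in DOX4X against PBS, with a median log2 value of 0.097. The Ku subunits, which form a heterodimer on broken ends, had fold changes of opposite sign, whose difference was not tested. Xrcc6, the smaller Ku subunit, had 37.7, 45.1, 35 and 35.2 CPM in DOX4X, 34.8, 39.4 and 30.5 CPM in DOX1X and 27.8, 34.9, 29.8 and 28.1 CPM in PBS. All 4 DOX4X libraries were above all 4 PBS libraries, with PBS 2 just under DOX4X 3, and the log2 fold change was 0.34 ± 0.11 (SE, adjusted p = 0.234 by edgeR). Xrcc5, the larger Ku subunit, averaged 25.6 ± 2.29 CPM in DOX4X and 28.7 ± 3.94 CPM in PBS (SD, n = 4 each), with overlapping groups and a log2 fold change of -0.17 ± 0.13 (SE, adjusted p = 0.616 by edgeR).

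Polq, the polymerase of microhomology-mediated end joining, had 5.64, 5.53, 2.65 and 3.95 CPM in DOX4X, 6.53, 6.06 and 4.07 CPM in DOX1X and 3.07, 3.8, 1.91 and 2.6 CPM in PBS. DOX1X 1 and 2 were the highest libraries, all 3 DOX1X libraries were above all PBS libraries, and DOX4X 3 lay within the PBS range. The log2 fold change was 0.64 ± 0.29 (SE, adjusted p = 0.356 by edgeR) for DOX4X against PBS. Xrcc4 and Lig4, the scaffold and the ligase of the final step, had log2 fold changes of 0.10 (SE 0.13) and -0.066 (SE 0.18) for DOX4X against PBS.

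The single-strand break and base excision repair genes had 3 of 5 above 0 and a median log2 fold change of 0.18 in DOX4X against PBS. Parp1, the main poly(ADP-ribose) polymerase and first responder to nicks, had 64.9, 74.7, 43.9 and 56.4 CPM in DOX4X, 58.2, 66 and 35.8 CPM in DOX1X and 51, 59.2, 43.9 and 33.9 CPM in PBS. DOX4X 2 was highest and PBS 4 lowest, the groups overlapped, and the log2 fold change was 0.35 ± 0.22 (SE, adjusted p = 0.512 by edgeR) for DOX4X. Parp2, its paralogue, had 35.5, 34.7, 33.3 and 35.4 CPM in DOX4X, 28.7, 35.7 and 33.2 CPM in DOX1X and 27.9, 30.8, 33.3 and 31 CPM in PBS. The DOX4X libraries lay close together, all of them above the PBS libraries, by a small margin over PBS 3, and the log2 fold change was 0.18 ± 0.085 (SE, adjusted p = 0.387 by edgeR). Xrcc1, the scaffold of single-strand break repair, had 29.9, 29.8, 27.3 and 29.4 CPM in DOX4X, 26.5, 29.1 and 27.7 CPM in DOX1X and 27.9, 32.9, 31.7 and 29.5 CPM in PBS, with a log2 fold change of -0.066 ± 0.077 (SE, adjusted p = 0.769 by edgeR) for DOX4X against PBS and the smallest spread within groups of the 35 genes. Lig3, its partner ligase, averaged 20.3 ± 2.38 CPM in DOX4X and 21.9 ± 2.19 CPM in PBS, while Lig1, the ligase that joins Okazaki fragments, averaged 40.0 ± 11.9 CPM in DOX4X and 27.3 ± 9.26 CPM in PBS (SD, n = 4 each).

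The crosslink, mismatch and nucleotide excision repair genes had 4 of 5 above 0 and the largest median of the 6 roles, a log2 fold change of 0.39 in DOX4X against PBS. Fanca, of the Fanconi anaemia core complex, had 6.8, 5.35, 2.44 and 3.16 CPM in DOX4X, 4.45, 3.82 and 2.29 CPM in DOX1X and 2.77, 3.14, 2.95 and 2 CPM in PBS. DOX4X 1 and 2 were above all others, DOX4X 3 lay within the PBS range, and the log2 fold change was 0.71 ± 0.33 (SE, adjusted p = 0.372 by edgeR). Fancd2, the substrate of that complex, averaged 7.9 ± 3.72 CPM in DOX4X and 5.08 ± 2.49 CPM in PBS (SD, n = 4 each). Msh6, which recognises mismatches, had 50.7, 48.3, 32.6 and 35.8 CPM in DOX4X, 35.3, 43.2 and 26.5 CPM in DOX1X and 39, 35.9, 28.7 and 23.8 CPM in PBS, with overlapping groups and a log2 fold change of 0.39 ± 0.20 (SE, adjusted p = 0.41 by edgeR) for DOX4X. Ercc1, a subunit of a structure-specific nuclease, and Ercc2, a helicase of the TFIIH complex, had log2 fold changes of 0.056 (SE 0.10) and -0.011 (SE 0.22).

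**Figure D2:**
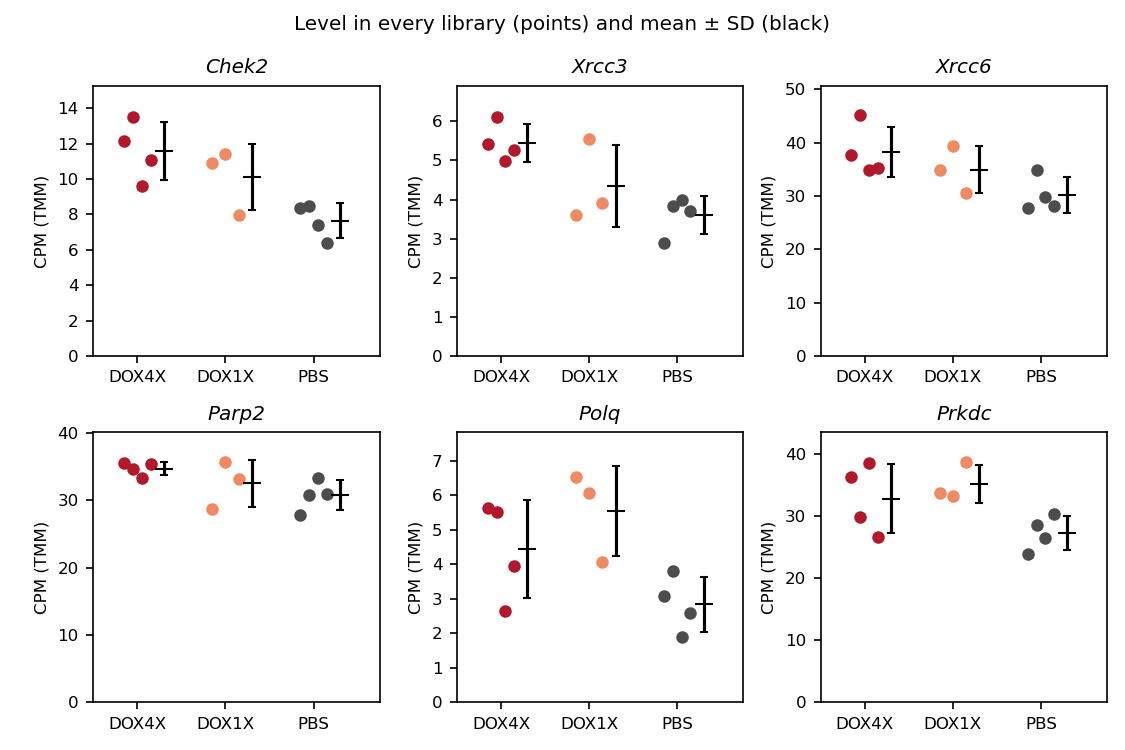
CPM after TMM scaling (vertical axes from 0) of Chek2, Xrcc3, Xrcc6, Parp2, Polq and Prkdc, the genes whose libraries did not overlap with PBS in at least 1 contrast. Points are libraries in the order of replicate numbers, and black marks are means ± SD. The DOX4X points of Chek2 (9.60 to 13.5 CPM) stand above the PBS points (6.37 to 8.48 CPM), and the DOX1X points of Polq (4.07 to 6.53 CPM) stand above the PBS points (1.91 to 3.80 CPM).

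The promoters of the genes with non-overlapping groups were read to show what sequence lies at their starts. RefSeq (GRCm38.p6) gave windows of 300 bases (250 before the start and 50 after) for 29 of the 35 genes, 35 windows in all. Capitals mark, on either strand, the CHR element of cell cycle genes (TTTGAA or TTCGAA), an E2F site (TTTGGCGC, TTTCGCGC, TTTCCCGC or TTTGCCGC) and the CCAAT box that binds NF-Y (CCAAT). The 4 windows shown are those of the genes with the smallest p in either doxorubicin contrast among those with non-overlapping groups and a window.
Chek2 (chr5:110839733-110840032, plus strand): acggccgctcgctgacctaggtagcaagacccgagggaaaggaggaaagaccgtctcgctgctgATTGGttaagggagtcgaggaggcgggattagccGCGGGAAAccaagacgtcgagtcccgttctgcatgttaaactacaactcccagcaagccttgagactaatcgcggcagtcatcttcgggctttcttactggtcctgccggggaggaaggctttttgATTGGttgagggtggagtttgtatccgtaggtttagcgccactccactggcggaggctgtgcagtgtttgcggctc
Xrcc3 (chr12:111813830-111814129, minus strand): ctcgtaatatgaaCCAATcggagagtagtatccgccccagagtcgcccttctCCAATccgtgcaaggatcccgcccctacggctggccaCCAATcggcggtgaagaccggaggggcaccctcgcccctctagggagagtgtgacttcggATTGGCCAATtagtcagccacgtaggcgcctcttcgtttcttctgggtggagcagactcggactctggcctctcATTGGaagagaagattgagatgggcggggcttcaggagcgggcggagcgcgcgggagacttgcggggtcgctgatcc
Xrcc6 (chr15:82016119-82016418, plus strand): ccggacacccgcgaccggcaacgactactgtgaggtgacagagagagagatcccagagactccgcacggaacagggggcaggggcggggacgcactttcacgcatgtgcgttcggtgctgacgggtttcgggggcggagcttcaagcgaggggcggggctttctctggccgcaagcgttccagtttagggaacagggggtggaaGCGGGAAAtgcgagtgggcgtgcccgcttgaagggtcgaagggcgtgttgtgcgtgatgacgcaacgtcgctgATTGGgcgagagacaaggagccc
Polq (chr16:37011536-37011835, plus strand): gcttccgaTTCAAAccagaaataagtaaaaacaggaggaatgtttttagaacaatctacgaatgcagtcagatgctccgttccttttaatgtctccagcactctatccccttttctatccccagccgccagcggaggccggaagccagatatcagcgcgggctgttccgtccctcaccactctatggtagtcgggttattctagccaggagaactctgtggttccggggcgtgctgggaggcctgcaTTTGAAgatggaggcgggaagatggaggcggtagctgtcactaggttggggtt

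Chek2 held 1 E2F match and 2 CCAAT matches, Xrcc6 1 and 1, Xrcc3 6 CCAAT matches with 2 of them side by side on opposite strands, and Polq 2 CHR matches alone. Of the 35 windows, 7 held an E2F match, beside 3.31% of the 18026 windows of genes in the count table. A CCAAT match was in 45.7% of the windows, beside 37.1%, and a CHR match in 11.4%, beside 15.4%. In 34 windows of cell division genes the shares were 20.6% for E2F, 82.4% for CCAAT and 55.9% for CHR. Matches were allowed to overlap, a match describes letters only, and several windows can belong to 1 gene.

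After a single dose of doxorubicin the repair genes were again mostly a little higher than in PBS, with Polq and Prkdc first by p, and none passed the test across all genes. In DOX1X against PBS, 26 of the 35 had a fold change above 0 (51.2% of all genes) and 9 below, with a median log2 value of 0.12 beside 0.0057 over all genes and a range of -0.18 to 0.96. edgeR called 0 of 35, where it called 0.00561% of all genes. DESeq2 called 0 (0.312% of the genes it gave an adjusted p) and limma-voom 0 (0.00561% of all genes). At an unadjusted p under 0.05, 4 were higher (Polq, Prkdc, Chek2 and Rnf168) and 0 lower, against 3.42% and 3.74% of all genes. Prkdc and Polq had every DOX1X library above every PBS library, and 0 genes had every library below, against 3.18% and 3.82% of all genes. The contrasts of DOX4X and DOX1X share their 4 PBS libraries, so they are not independent of each other.

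Polq had the largest log2 fold change of DOX1X against PBS, 0.96 ± 0.31 (SE, adjusted p = 0.596 by edgeR), with group means of 5.56 ± 1.31 CPM in DOX1X and 2.85 ± 0.797 CPM in PBS (SD, n = 3 and n = 4). Of the other genes at an unadjusted p under 0.05, Prkdc was at 0.37 ± 0.13 (SE, adjusted p = 0.615 by edgeR), Chek2 at 0.40 ± 0.17 (SE, adjusted p = 0.668 by edgeR) and Rnf168 at 0.27 ± 0.12 (SE, adjusted p = 0.675 by edgeR). Chek1 was at 0.68 ± 0.34 (SE, adjusted p = 0.719 by edgeR), close to its value in DOX4X, and Xrcc6 at 0.21 ± 0.12 (SE, adjusted p = 0.738 by edgeR). The kinases had 5 of 5 above 0 and a median of 0.37, and break sensing 4 of 5 and 0.032. Of the remaining roles, homologous recombination had 7 of 10 and 0.14, end joining 3 of 5 and 0.071, single-strand break repair 3 of 5 and 0.082, and crosslink, mismatch and nucleotide excision repair 4 of 5 and 0.13. The remaining key genes were Atm at 0.16 (SE 0.16), Atr at 0.021 (SE 0.14), Brca1 at 0.48 (SE 0.56), Brca2 at -0.0052 (SE 0.26), Trp53bp1 at 0.028 (SE 0.085), Parp1 at 0.18 (SE 0.24) and Xrcc1 at -0.13 (SE 0.083). Without PBS 4, 24 were above 0 and 11 below, the median was 0.082, and 3 (Polq, Prkdc and Rnf168) were higher at an unadjusted p under 0.05, against 5.28% of all genes in that fit.

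Between the doxorubicin schedules no repair gene passed the test. In DOX4X against DOX1X, 26 of 35 were above 0 (49.7% of all genes), with a median of 0.047 beside -0.0011 over all genes and a range of -0.32 to 0.33. edgeR called 0 of 35 (0.00561% of all genes), DESeq2 0 (0.152% of the genes it gave an adjusted p) and limma-voom 0 (0.00561% of all genes), and by edgeR 0 were higher and 0 lower at an unadjusted p under 0.05, against 2.23% and 2.13% of all genes. No gene of the 35 had groups that did not overlap, against 3.19% of all genes higher and 2.79% lower. The 6 with the smallest p were Xrcc3 at 0.32 (SE 0.20), Nbn at 0.15 (SE 0.12), Msh6 at 0.26 (SE 0.21), Chek2 at 0.20 (SE 0.17), Rad52 at 0.16 (SE 0.15) and Xrcc6 at 0.13 (SE 0.12), and edgeR's adjusted p was 1.00 for each. Polq had the lowest value, -0.32 (SE 0.31). With 1 library left out, Xrcc3 ran from 0.20 to 0.54, Msh6 from 0.093 to 0.44, Chek2 from 0.053 to 0.29, Nbn from 0.095 to 0.23, Rad52 from 0.075 to 0.24 and Xrcc6 from 0.043 to 0.23. The lowest values of Msh6, Chek2, Nbn and Xrcc6 came without DOX1X 3, and the highest of Xrcc3 without DOX1X 2. The count above 0 was not stable: 18 of 35 without DOX1X 3 and 17 of 35 without DOX4X 1.

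Of the 9 genes with the largest fold changes in DOX4X against PBS, 7 are known mainly from cells that replicate their DNA. A list of 9 such genes (Brca1, Brca2, Chek1, Rad54l, Lig1, Polq, Fanca, Fancd2 and Msh6) had 9 of 9 above 0 and a median log2 fold change of 0.64 in DOX4X against PBS, while the other 26 had 19 above 0 and a median of 0.11. In DOX1X against PBS the 9 had 8 above 0 and a median of 0.48, and the other 26 had 18 and 0.033. In DOX4X against DOX1X the medians were 0.067 and 0.022. The list was chosen with earlier results of these data known, so its contrast with the other 26 is a description only. The summed level of the 9 was 180, 151, 92.6 and 115 CPM in DOX4X, 136, 155 and 75.9 CPM in DOX1X and 107, 128, 84.5 and 63.8 CPM in PBS. The groups overlapped, and libraries differed more within each group than the group means did. The summed level of the other 26 was 570.4, 573, 525 and 514 CPM in DOX4X, 519, 558 and 502 CPM in DOX1X and 501, 517, 500.1 and 481 CPM in PBS. There DOX4X 4 and DOX1X 3 lay within the PBS range, and the other DOX4X and DOX1X libraries lay above it.

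Cell division genes were high and low in the same libraries as the 9, and so were erythroid markers. The 9 and the cell division genes were both picked as genes of replicating cells, so their shared order was largely set by that choice. The summed level of 38 cell division genes was 2371, 1993, 1081 and 1391 CPM in DOX4X, 1841, 1930 and 889 CPM in DOX1X and 1162, 1605, 1013 and 694 CPM in PBS. DOX4X 3, DOX1X 3 and PBS 4 were the lowest of their groups both in this sum and in that of the 9, and DOX4X 1, DOX1X 2 and PBS 2 the highest in both. Summed erythroid markers kept the same order of libraries as the 9 within each group. They were at 1506, 1321, 622 and 861 CPM in DOX4X, 1099, 1158 and 474 CPM in DOX1X and 661, 875, 425.5 and 283 CPM in PBS. The other lists of marrow cell markers did not keep that order in every group. All 38 had a fold change above 0 in DOX4X against PBS, with a median of 0.70. edgeR called 0 of them, with 5 higher at an unadjusted p under 0.05, against 6% of all genes. limma-voom called 0, and DESeq2 called 1 (Hmgb2), against 4.02% of the genes it gave an adjusted p. Hmgb2, a chromatin protein of dividing cells, was at 0.62 ± 0.19 (SE, adjusted p = 0.205 by edgeR) and Cenpa, the centromeric histone, at 0.83 ± 0.30 (SE, adjusted p = 0.256 by edgeR). In bulk RNA, more dividing cells and more of a transcript per cell cannot be told apart, and which cells held these transcripts was not tested.

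**Figure D3:**
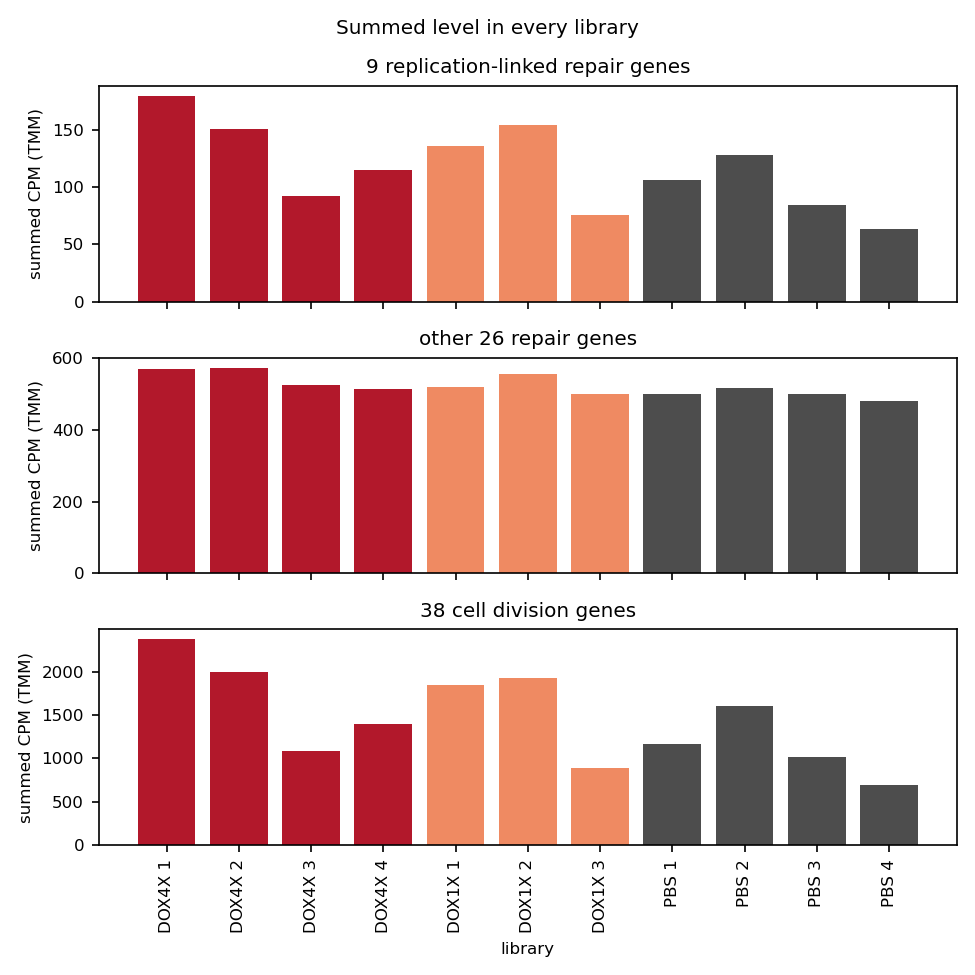
Summed CPM after TMM scaling (vertical axes from 0) in each of the 11 libraries for the 9 replication-linked repair genes, the other 26 repair genes and 38 cell division genes. The top and bottom panels have the same tallest and the same shortest library in each group (63.8 to 180 CPM and 694 to 2371 CPM over all). The middle panel, which spans 481 to 573 CPM, shares these libraries in DOX1X and PBS. In DOX4X its tallest is DOX4X 2 and its shortest DOX4X 4.

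Markers of other marrow cells were mostly higher in DOX4X too. Fold changes above 0 against PBS were found for 17 of 17 B lineage genes (median 1.14 on the log2 scale), 14 of 14 erythroid (1.04), 16 of 16 T and NK cell (1.06), 15 of 15 endothelial (0.82), 12 of 15 neutrophil (0.59) and 8 of 14 monocyte and macrophage markers (0.25). edgeR and limma-voom called 0 of these. DESeq2 called 5 B lineage, 2 erythroid and 2 T and NK cell genes, where it called 4.02% of the genes it gave an adjusted p. At an unadjusted p under 0.05, edgeR gave 13 B lineage, 10 erythroid, 5 T and NK cell, 6 endothelial, 1 neutrophil and 2 monocyte and macrophage markers higher, and 1 of the last list lower. Of all genes, 6% were higher and 7.85% lower at that threshold. Summed B lineage markers were at 202 to 676 CPM in DOX4X, 327 to 845 CPM in DOX1X and 120 to 555 CPM in PBS. Summed erythroid markers were at 622 to 1506 CPM in DOX4X, 474 to 1158 CPM in DOX1X and 283 to 875 CPM in PBS, and neutrophil markers at 278 to 1085 CPM in DOX4X, 252 to 925 CPM in DOX1X and 191 to 667 CPM in PBS. T and NK cell markers summed to 20.2 to 50.2 CPM in DOX4X, 19.6 to 40.0 CPM in DOX1X and 12.2 to 25.3 CPM in PBS. Monocyte and macrophage markers summed to 429 to 684 CPM in DOX4X, 458 to 564 CPM in DOX1X and 393 to 639 CPM in PBS. Endothelial markers summed to 699 to 1288 CPM in DOX4X, 275 to 505 CPM in DOX1X and 203 to 838 CPM in PBS. In DOX4X against DOX1X all 15 were fully higher, against 3.19% of all genes. In DOX1X against PBS, 0 of 15 endothelial markers had a fold change above 0 (median -0.593). Above 0 there were 17 of 17 B lineage (0.788), 14 of 14 erythroid (0.868) and 16 of 16 T and NK cell markers (0.93). So were 15 of 15 neutrophil (1.49) and 9 of 14 monocyte and macrophage markers (0.0741). The defining markers at 0 in some libraries were Gzma (3 libraries) and Cd8a, Cd8b1 and Gzmb (1 each). Stromal identity genes summed to 62270 to 73220 CPM in DOX4X, 61960 to 77950 CPM in DOX1X and 68310 to 78220 CPM in PBS, and 4 of 14 had a fold change above 0 in DOX4X against PBS (median -0.14). At an unadjusted p under 0.05 by edgeR, 0 were higher and 4 lower (Lepr, Pdgfra, Nt5e and Prrx1), and edgeR and limma-voom called 0. DESeq2 called Nt5e and Prrx1, and every DOX4X library was below every PBS library for Pdgfra and Prrx1, where 4.68% of all genes were fully lower.

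Within these lists, the 2 genes with the smallest p in DOX4X against PBS had the following log2 fold changes, 0 of them called by edgeR. The B lineage genes Cd79a and Vpreb3 were at 1.27 and 1.42, and the haemoglobin genes Hbb-bt and Hba-a2, whose copies can share reads, at 1.49 and 1.08. The T and NK cell genes Ccl5 and Il7r were at 1.53 and 1.20, and the endothelial genes Eng and Egfl7 at 0.40 and 0.94. The neutrophil genes Lcn2 and Ltf were at 0.96 and 1.43, and the monocyte and macrophage genes Mrc1 and Cd14 at 1.06 and 0.38. The stromal identity genes Prrx1, a mesenchymal transcription factor, and Nt5e, the ectonucleotidase CD73, were at -0.32 and -0.77.

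Adding a cell division or blood-cell marker covariate to the fit lowered the median of the 9 and moved that of the other 26 little. The difference was not tested. With flow cell as a covariate, Brca1, Brca2, Chek1, Polq and Fanca instead rose, to 1.9, 0.915, 1.32, 1.27 and 1.56 in DOX4X against PBS. The 9 and the cell division list were both picked as genes of replicating cells. A fall of the 9 under the cell division covariate was therefore largely set by how the lists were chosen. With the mean log2 CPM of the cell division list as a covariate, the 9 had 6 above 0 and a median of 0.054 in DOX4X against PBS, and the other 26 had 17 above 0 and a median of 0.12. Chek2 was then at 0.37 ± 0.11 (SE, adjusted p = 0.122 by edgeR), Xrcc3 at 0.53 ± 0.21 (SE, adjusted p = 0.206 by edgeR) and Prkdc at 0.33 ± 0.13 (SE, adjusted p = 0.209 by edgeR). Chek1 was at 0.28, Polq at 0.22, Fanca at 0.12, Rad54l at 0.054 and Lig1 at -0.031, all lower than without the covariate. Lig3 was at -0.30 ± 0.095 (SE, adjusted p = 0.135 by edgeR). The blood-cell marker covariate is the mean log2 CPM of the B lineage, erythroid, neutrophil, and monocyte and macrophage lists. Its erythroid markers kept the library order of the 9, so a fall of the 9 could be foreseen here too. With this covariate, the 9 had 4 above 0 and a median of -0.066, and the other 26 had 17 and 0.091. Of the 35, 0 passed an unadjusted p under 0.05. Chek2 was then at 0.36 ± 0.17 (SE, adjusted p = 0.443 by edgeR), Xrcc3 at 0.44 ± 0.22 (SE, adjusted p = 0.457 by edgeR) and Xrcc6 at 0.16 ± 0.12 (SE, adjusted p = 0.609 by edgeR). In DOX1X against PBS the median of the 9 was -0.062 with the cell division covariate and -0.26 with the blood-cell marker covariate. The covariates themselves differ between the groups, and what share of any fold change they account for was not tested.

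**Figure D4:**
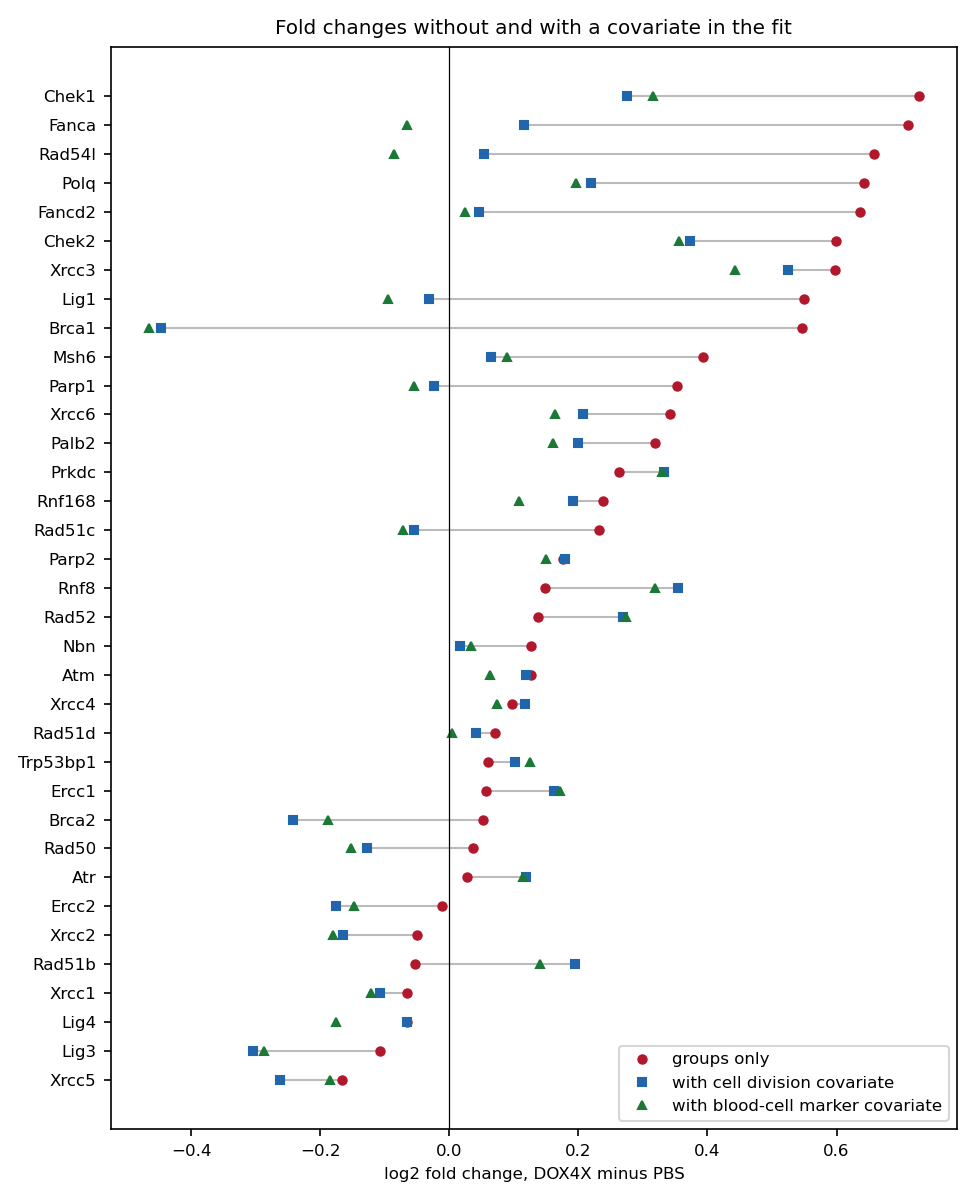
Log2 fold changes of the 35 genes in DOX4X minus PBS (horizontal axis) from the fit with groups only (red circles) and with the cell division covariate (blue squares) or the blood-cell marker covariate (green triangles); grey lines join circles to squares. Fanca, Rad54l, Fancd2, Lig1 and Brca1 shift left by more than 0.5, while Xrcc3, Prkdc and Parp2 keep nearly the same place under the cell division covariate.

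Across the 11 libraries, DOX4X 1 had 28 of the 35 genes above their own mean, DOX4X 4 had 24, DOX4X 2 had 23 and DOX4X 3 had 16. DOX1X 1, 2 and 3 had 20, 26 and 12, and PBS 1 to 4 had 14, 16, 11 and 7. DOX1X 3 and DOX4X 3 thus sat among the PBS libraries on this count. The spread within groups was smallest for Xrcc1 (5.75% of the mean), Trp53bp1 (6.46%) and Parp2 (7.05%). It was largest for Brca1 (55.6%), Fancd2 (45.7%), Rad54l and Fanca (38.8% each), Chek1 (36%) and Lig1 (35.5%), all in the list of 9.

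**Figure D5:**
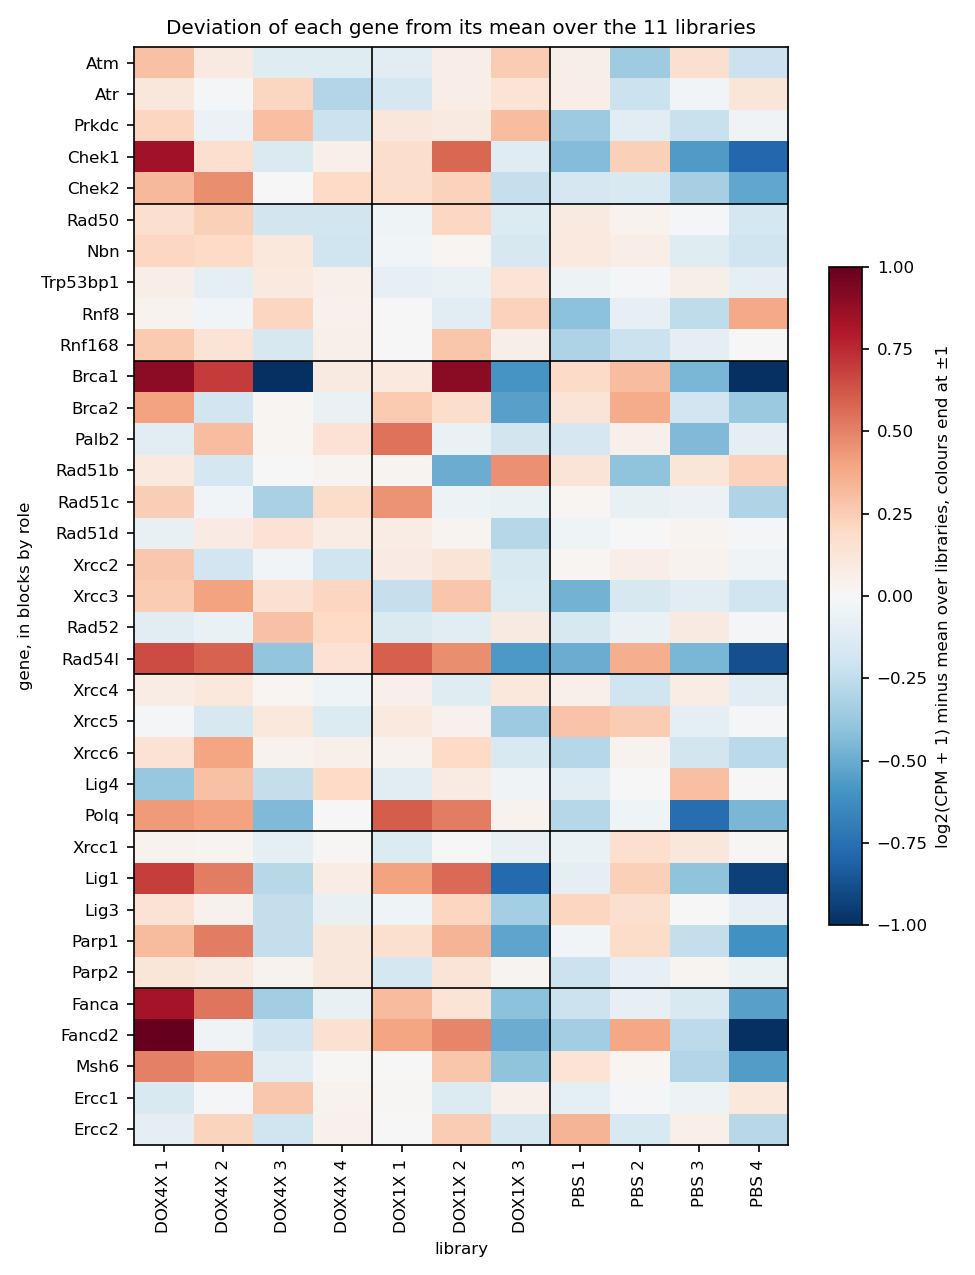
Deviation of log2(CPM + 1) of each gene (rows, in blocks by role) from its mean over the 11 libraries (columns), red above and blue below the mean, with colours ending at ±1. Brca1, Rad54l, Lig1, Parp1, Fanca and Msh6 are blue together in PBS 3, PBS 4, DOX1X 3 and DOX4X 3. The same genes are red together in DOX1X 2, DOX4X 1 and DOX4X 2. Of the replication-linked genes, Brca2 and Fancd2 are below their mean in DOX4X 2. Trp53bp1, Xrcc1 and Parp2 stay pale throughout.

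Per length, using the exon lengths of GENCODE M21 (GRCm38), levels in PBS ran from 12.2 CPM per kb for Nbn to 0.288 CPM per kb for Rad51c. After Nbn came Xrcc5 at 11.2 CPM per kb, Parp1 at 8.88 CPM per kb, Parp2 at 8.48 CPM per kb and Msh6 at 7.33 CPM per kb. At the low end were Palb2 at 0.460, Fanca at 0.310 and Polq at 0.294 CPM per kb. DOX4X levels per length ran from 13.4 CPM per kb for Nbn to 0.338 CPM per kb for Rad51c, and DOX1X levels from 12.1 CPM per kb for Nbn to 0.376 CPM per kb for Rad51c. The lengths come from another build than the counts. Rad51c had 29 to 94 reads per library, the fewest of the 35, and Polq 59 to 267.

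Several of the genes share exon bases with a neighbour on the opposite strand, and the library kit does not mark strand. In GENCODE M21, Rffl covers 25.07% of the exon bases of Lig3, Gm26852 covers 24.58% and Klc3 17.84% of those of Ercc2, and Lrrc41 covers 15.36% of those of Rad54l. Tubgcp4 covers 15.04% of Trp53bp1, Gm28043 13.18% of Rnf8 on the same strand, Zfp276 10.5% of Fanca, Desi1 7.69% of Xrcc6 and Klc1 0.44% of Xrcc3. In DOX4X against PBS, Lrrc41 had a log2 fold change of -0.29 beside 0.66 for Rad54l, Desi1 0.054 beside 0.34 for Xrcc6, Zfp276 0.15 beside 0.71 for Fanca and Klc1 -0.087 beside 0.60 for Xrcc3. Some of the genes have a neighbour that starts nearby on the other strand, and the difference between neighbours was not tested. Hscb, 202 bases from the start of Chek2, was at 0.34 beside 0.60, and Mcm4, a helicase subunit of replication 466 bases from the start of Prkdc, was at 0.21 beside 0.26. Zfyve21, 297 bases from Xrcc3, was at 0.026, and Nbr1, 194 bases from Brca1, was at -0.19 beside 0.55.

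Repair genes outside the set were mostly above 0 as well. Of 99 others in the table, 79 had a fold change above 0 in DOX4X against PBS, with a median log2 value of 0.12, and 0 were called by edgeR. At an unadjusted p under 0.05, 9 were higher and 1 lower, against 6% and 7.85% of all genes. Every DOX4X library was above every PBS library for 3 of the 99 and below for 1, against 3.17% and 4.68% of all genes. DESeq2 called 2 (Fanci and Ube2t), against 4.02% of the genes it gave an adjusted p, and limma-voom called 0. Fanci, the partner of Fancd2, had 9.8, 7.96, 4.84 and 4.63 CPM in DOX4X, 6.19, 5.06 and 2.39 CPM in DOX1X and 2.64, 4.34, 3.59 and 1.5 CPM in PBS, with every DOX4X library above every PBS library and a log2 fold change of 1.17 ± 0.39 (SE, adjusted p = 0.227 by edgeR). Ube2t, the conjugating enzyme of the same pathway, was at 0.99 ± 0.28 (SE, adjusted p = 0.173 by edgeR) and Polh, a translesion polymerase, at 0.47 ± 0.17 (SE, adjusted p = 0.264 by edgeR). Fancc, of the core complex with Fanca, was lower, at -0.23 ± 0.086 (SE, adjusted p = 0.271 by edgeR), with 34.4, 41, 42.3 and 33.9 CPM in DOX4X and 44.6, 43.3, 46.6 and 43.4 CPM in PBS.

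In DOX1X against PBS, 67 of the 99 were above 0 (median 0.080). edgeR called 0, with 8 higher and 0 lower at an unadjusted p under 0.05, against 3.42% and 3.74% of all genes. DESeq2 and limma-voom called 0. Tdp2, the phosphodiesterase that removes trapped topoisomerase II from DNA ends, had 33.5, 33.4, 33.8 and 32.8 CPM in DOX4X, 37.2, 35.7 and 34.6 CPM in DOX1X and 26.8, 29.1, 30.0 and 33.3 CPM in PBS. All 3 DOX1X libraries were above both other groups, and the log2 fold change against PBS was 0.27 ± 0.082 (SE, adjusted p = 0.596 by edgeR). Of the 99, 2 were fully higher and 2 fully lower in DOX1X than in PBS, against 3.18% and 3.82% of all genes. Between the schedules 3 were fully higher and 1 fully lower in DOX4X, against 3.19% and 2.79% of all genes. Fancg, of the core complex, was at 0.49 ± 0.14 (SE, adjusted p = 0.580 by edgeR), Neil3, a glycosylase of replicating cells, at 0.97 ± 0.34 (SE, adjusted p = 0.615 by edgeR) and Ube2t at 0.76 ± 0.30 (SE, adjusted p = 0.634 by edgeR). In DOX4X against DOX1X, 62 of the 99 were above 0 (median 0.037), and the 4 with the smallest p were Xpc at 0.24, Rev1 at 0.56, Fancg at -0.24 and Polh at 0.30, with an adjusted p of 1.00 by edgeR for each.

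Targets of p53, the transcription factor downstream of ATM and Chek2, had 18 of 28 above 0 in DOX4X against PBS, with a median of 0.042. edgeR called 0, with 0 higher and 3 lower at an unadjusted p under 0.05, against 6% and 7.85% of all genes. limma-voom called 0, and DESeq2 called 1 lower (Ddit4l), against 4.02% of the genes it gave an adjusted p. Ddit4l was at -0.51 ± 0.13 (SE, adjusted p = 0.134 by edgeR) and Ccng1 at -0.20 ± 0.062 (SE, adjusted p = 0.208 by edgeR). For both, every DOX4X library was below every PBS library. Of the 28 targets, 3 were fully lower and 0 fully higher, where 4.68% of all genes were fully lower and 3.17% fully higher. Among well-known targets, Cdkn1a was at -0.022 (SE 0.24), Mdm2 at 0.025 (SE 0.077) and Bax at 0.12 (SE 0.098). In DOX1X against PBS 15 of 28 were above 0, with a median of 0.029.

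The flow cells could be separated from treatment only in part. On flow cell 1, where DOX1X 1 and 2 can be set against all 4 PBS libraries, 27 of the 35 were above 0, edgeR called 0, and 8 were higher at an unadjusted p under 0.05 (4.28% of all genes). Polq was at 1.14 ± 0.29 (SE, adjusted p = 0.372 by edgeR), Chek2 at 0.54 ± 0.18 (SE, adjusted p = 0.536 by edgeR) and Prkdc at 0.29 ± 0.12 (SE, adjusted p = 0.612 by edgeR). The median of the 9 replication-linked genes there was 0.78, against 0.48 with DOX1X 3 included. On flow cell 2, DOX4X could be set against DOX1X 3 alone: 27 of 35 were above 0, with a median of 0.23. With flow cell as a covariate, DOX4X against PBS had 25 above 0 (49.1% of all genes) and 10 below, with a median of 0.35. By edgeR 0 were called, and 11 were higher at an unadjusted p under 0.05, against 5.89% of all genes. These were Brca2, Chek2, Fanca, Fancd2, Lig1, Msh6, Parp1, Polq, Rad51d, Rad54l and Xrcc6, while 1 (Rad51b) was lower. In that fit Chek2 was at 1.08 ± 0.29 (SE, adjusted p = 0.311 by edgeR), Xrcc3 at 0.82 ± 0.39 (SE, adjusted p = 0.544 by edgeR), Xrcc6 at 0.62 ± 0.22 (SE, adjusted p = 0.422 by edgeR) and Prkdc at 0.051 ± 0.25 (SE, adjusted p = 0.965 by edgeR). That fit takes the flow cell difference from the 3 DOX1X libraries, of which DOX1X 3 alone stands on flow cell 2.

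Leaving out 1 library at a time did not bring any of the 35 past the edgeR threshold. Chek2, Xrcc3 and Xrcc6 were higher at an unadjusted p under 0.05 in DOX4X against PBS in all 11 such fits, in which 3 to 9 of the 35 were, against 4.04% to 6.71% of all genes. Genes whose groups do not overlap with all libraries cannot come to overlap when a library is removed. Leaving out a library is therefore no check on the non-overlap of Chek2, Xrcc3, Xrcc6 and Parp2 in DOX4X, or of Prkdc and Polq in DOX1X. With 1 DOX4X or PBS library left out, 4 to 7 of the 35 and 4.21% to 6.43% of all genes were fully higher in DOX4X. With 1 DOX1X or PBS library left out, 2 to 9 of the 35 and 4.68% to 9.22% of all genes were fully higher in DOX1X than in PBS. The count of 9 came without DOX1X 3, where the share of all genes was 9.22%.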

How the data were processed

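Bulk RNA-seq libraries of 11 mice were compared (4 DOX4X, 3 DOX1X, 4 PBS). The deposited values are raw counts per gene with no normalization; the authors used, per the submitters' processing notes, featureCounts 2.0.1, STAR 2.7.9a, SAMtools 1.17, Trim Galore 0.6.6, MultiQC 1.7 and FastQC 0.11.5, on GRCm39. The sources used here do not state the annotation, the strand setting or the treatment of multi-mapping reads.

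Genes were kept with filterByExpr of edgeR 4.0.16 (R 4.3.3) and scaled with TMM, and all 11 libraries were fitted together and tested two-sided by edgeR's quasi-likelihood test, adjusting by Benjamini-Hochberg over 17838 genes at a threshold of 0.05. SE is the fold change over the root of its F statistic. The procedure was run on simulated counts with planted fold changes. Genes were drawn independently there, so the run did not test libraries in which many genes shift together. Alternatives were DESeq2 1.42.0, limma-voom (limma 3.58.1) with quality weights, RLE and upper quartile scaling, no filter and a stricter one (5 CPM in 3 libraries), a robust prior, the compared groups alone, a replicate block, covariates, a threshold of 0.10 and each library left out. Fits within a flow cell, and non-overlap counts without each library, were added after seeing the data. Covariates are mean log2 CPM (prior count 2) of a list. Libraries of a group differed by more than sampling noise.

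Per-library values are given for 10 key genes and for the 6 of the set with the smallest p in each comparison; of other repair genes the 4 with the smallest p, and of the other lists 2, are named. Parp2 and other exceptions were named after their values were seen. The members, lists and rules were chosen with earlier results of these data known.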

Additional observations from a re-analysis of the deposited data

Results flagged for a closer look

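Of 162 groups of 4 libraries checked (the repair genes, the named genes of other lists and the summed lists), 3 held a library far from the other 3; by chance about 1 in 20 groups does. None of the 70 groups of the 35 repair genes did, the largest gap being 0.813 of a group's range. Vpreb3, a B lineage marker, was at 28.9 CPM in DOX4X 2, against 8.84 to 11.2 CPM in the other DOX4X libraries. Ccl5, a T and NK cell marker, was at 1.02 CPM in DOX4X 3, against 2.72 to 3.06 CPM in the other DOX4X libraries. The summed stromal identity genes were at 78200 CPM in PBS 1, against 68300 to 69300 CPM in the other PBS libraries.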

How the results depend on the processing

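No repair gene was called by edgeR in any comparison under any of the alternatives run, and DESeq2 called 2 in DOX4X against PBS. Of 993 fold changes of named repair genes recomputed, 2 passed the threshold only under the alternative (Chek2 at 0.60 and Xrcc3 at 0.60, by DESeq2), and 67 changed sign among those without an unadjusted p under 0.05. The count over all genes was less stable. For DOX4X against PBS (26 genes) it was 590 by DESeq2, 56 by limma-voom, 1 with the compared groups only, 10 with the replicate block, 2 with the blood-cell marker covariate, 44 with the cell division covariate, 6 with the flow cell covariate, 64 at a threshold of 0.10, and 0 to 80 with 1 library left out (80 without PBS 4, 0 without DOX4X 1, 2 or 3). For DOX1X against PBS (1 gene) it was 49 by DESeq2, 6 with the replicate block, 5 within one flow cell and 1 to 2 with 1 library left out. For DOX4X against DOX1X (1 gene) it was 27 by DESeq2, 2 with the replicate block and 1 to 2 with 1 library left out. The cause of these differences was not tested. The median of the 35 was 0.345 with the flow cell covariate and 0.0631 with the blood-cell marker covariate in DOX4X against PBS (0.145 to 0.21 with 1 library left out), and in DOX4X against DOX1X it was 0.224 with the flow cell covariate and 0.226 within one flow cell (-0.0019 to 0.115 with 1 library left out). In DOX1X against PBS it was 0.0136 with the blood-cell marker covariate and 0.057 to 0.166 with 1 library left out.

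Same-numbered libraries shared deviations with correlations of -0.119 to 0.347 over genes, so the replicate numbers were not taken to pair mice. With the replicate block, 10 of the 35 were higher at an unadjusted p under 0.05 in DOX4X against PBS (7.97% of all genes in that fit) and 0 were called. A group of 3 or 4 mice limits what can be seen: the smallest edgeR adjusted p of a repair gene with all libraries was 0.155, and genes at a few CPM, such as Rad51c and Polq, rest on few reads.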
